A study of Bos taurus with 16 samples.

Results

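The translation initiation, elongation and release factors of cattle (Bos taurus) were followed in kidney RNA before and after linear amplification. They were the spotted cDNA clones whose listed gene symbol begins with EIF and a digit or with EEF1 or EEF2, or is ETF1, GSPT1 or GSPT2. This rule gave 48 features (96 spots, since each clone was printed in duplicate) for 37 genes, out of 5693 features with a listed gene. All 48 symbols were the same in a current gene table, and GSPT2 had no feature. Another feature lists EEF1A1 together with a second gene and was left out, so that eEF1A itself was not measured.

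The array was a custom 2-colour bovine cDNA array, and the series title presents the work as a check of linear amplification meant for single embryos. The groups were kidney RNA at round 0 (unamplified total RNA) and after 1, 2 and 3 rounds of linear amplification, a procedure in which RNA is copied by in vitro transcription from cDNA. Each round had 2 RNAs, replicates 1 and K, and each RNA was hybridised on 2 arrays of opposite dye against the same reference standard RNA, which gave 16 arrays. The reference had itself been amplified for 2 rounds, so that round 0 alone set unamplified kidney against amplified reference. It is not stated if replicates 1 and K came from separate animals, nor what the reference was made from, and p-values therefore measure the spread between these RNAs, which may be technical.

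Translation of a messenger RNA starts when eIF2 brings the initiator tRNA to the small ribosomal subunit, while eIF1 and eIF1A guard the choice of start codon and the large eIF3 complex holds the parts together. The eIF4 group binds the cap and unwinds the leader of the messenger, eIF5 and eIF5B complete the joining of the subunits, and eEF1 and eEF2 then carry the ribosome along the coding sequence until the release factors eRF1 (ETF1) and eRF3 (GSPT1) free the protein. These proteins are needed in every cell. Some members act as brakes: the kinases EIF2AK1 and EIF2AK4 phosphorylate eIF2, and EEF2K phosphorylates eEF2.

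Values are the log2 of the kidney signal divided by that of the reference, set relative to each array's median over features with a listed gene and averaged over the dye swap of an RNA. A value of 1 is a 2-fold ratio. That kidney stands on top is likely rather than stated: the direction was taken so that kidney tubule genes lay mostly above the reference. At round 0, 11 of 13 features of 8 such genes did, and their median was 2.38 on arrays with kidney in Cy5 and 3.00 with kidney in Cy3. With the opposite direction every sign below would turn. Each array gave a ratio for 14182 to 16057 of 16896 spots, and for 88 to 96 of the 96 translation factor spots. The correlation between duplicate spots, over all features, was 0.50 to 0.82. In the deposited table the 12 amplified arrays carry 3 decimals in 83.2% to 88.2% of cells and the 4 round 0 arrays in 100%, so that a difference in handling and round 0 itself cannot be told apart. Of the 48 features, 47 were measured in all 8 RNAs and were tested among 5537 listed features. The clone of EIF3B, the subunit that scaffolds eIF3, had no ratio at round 0 and stood at -0.37 and 0.67 at round 1, -0.23 and 0.38 at round 2, and -0.46 and 0.00 at round 3.

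The translation factors as a list lay below the middle of the array in kidney. Their median ratio was -0.39, -0.54, -0.44 and -0.23 at rounds 0, 1, 2 and 3, beside -0.02, 0.04, 0.02 and 0.01 for all 5537 features. At rounds 0 to 3, 36, 36, 38 and 30 of the 47 features had a ratio under 0. This is a position relative to the other features of the array: without centring the median of all features was 0.65, -0.30, 0.59 and 0.32, that of the translation factors 0.28, -0.88, 0.13 and 0.08, and 10, 41, 13 and 22 of them were under 0. The distance between both medians without centring was -0.36, -0.58, -0.46 and -0.24. The position also differed by dye. With centring, the median of the translation factors was -0.26, -0.25, -0.21 and -0.04 from the arrays with kidney in Cy5 alone. From those with kidney in Cy3 alone it was -0.47, -0.79, -0.65 and -0.56.

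**Figure D1:**
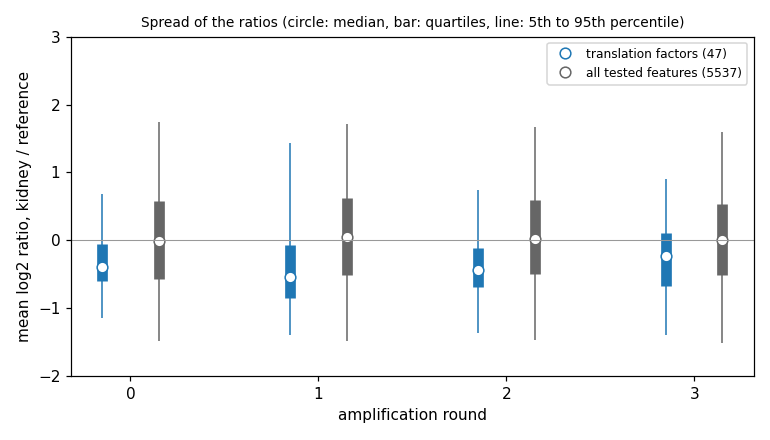
Mean log2 ratio of kidney over reference (vertical axis) at rounds 0 to 3 (horizontal axis) for the 47 translation factor features (blue, left of each pair) and all 5537 tested features (grey). Circles are medians, thick bars quartiles and thin lines the 5th to 95th percentiles; the blue medians lie at -0.39, -0.54, -0.44 and -0.23 and the grey ones within 0.04 of 0.

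Against the reference, limma called 17 of the 47 features at round 0 (3 above, 14 below), with adjusted p under 0.05 over all features. That is 36.2%, against 38.7% of all tested features (19.6% above, 19% below). At round 1 it called 23 features (48.9%; 4 above, 19 below), against 37.8% of all (16.9% above, 20.9% below). At round 2 there were 16 calls (34.0%; 3 above, 13 below), against 35.2% of all, and at round 3 there were 17 (36.2%; 4 above, 13 below), against 35.1% of all. The number of calls was thus near that of the array at rounds 0, 2 and 3, and, with centring, the calls lay mostly on the lower side. Without centring that side turned at rounds 0, 2 and 3, with 8 above and 1 below at round 0, 2 and 23 at round 1, 5 and 2 at round 2, and 4 and 3 at round 3. Features called on the same side at all 4 rounds were EIF2B4 above the reference, and EIF2S1, both EIF2S2 clones, EIF4A1 clone 2, EIF5A, EEF2 clone 1 and EIF2AK4 clone 2 below it. How many of all features were called on the same side at all 4 rounds was not counted, so this set cannot be called particular to the translation factors. Without the round 0 replicate 1 the round 0 count was 5, and without replicate K 4. The round 1 count was 9 without its replicate K, and counts were 8 and 4 without replicates 1 and K at round 2, and 8 and 4 likewise at round 3. The counts without centring were 9, 25, 7 and 7 of 47, where 35.7%, 26.5%, 31.2% and 22.1% of all features were called. EIF2S2 clone 1, EEF2 clone 1 and EIF2AK4 clone 2 lay above 0 at round 0 without centring.

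**Figure D2:**
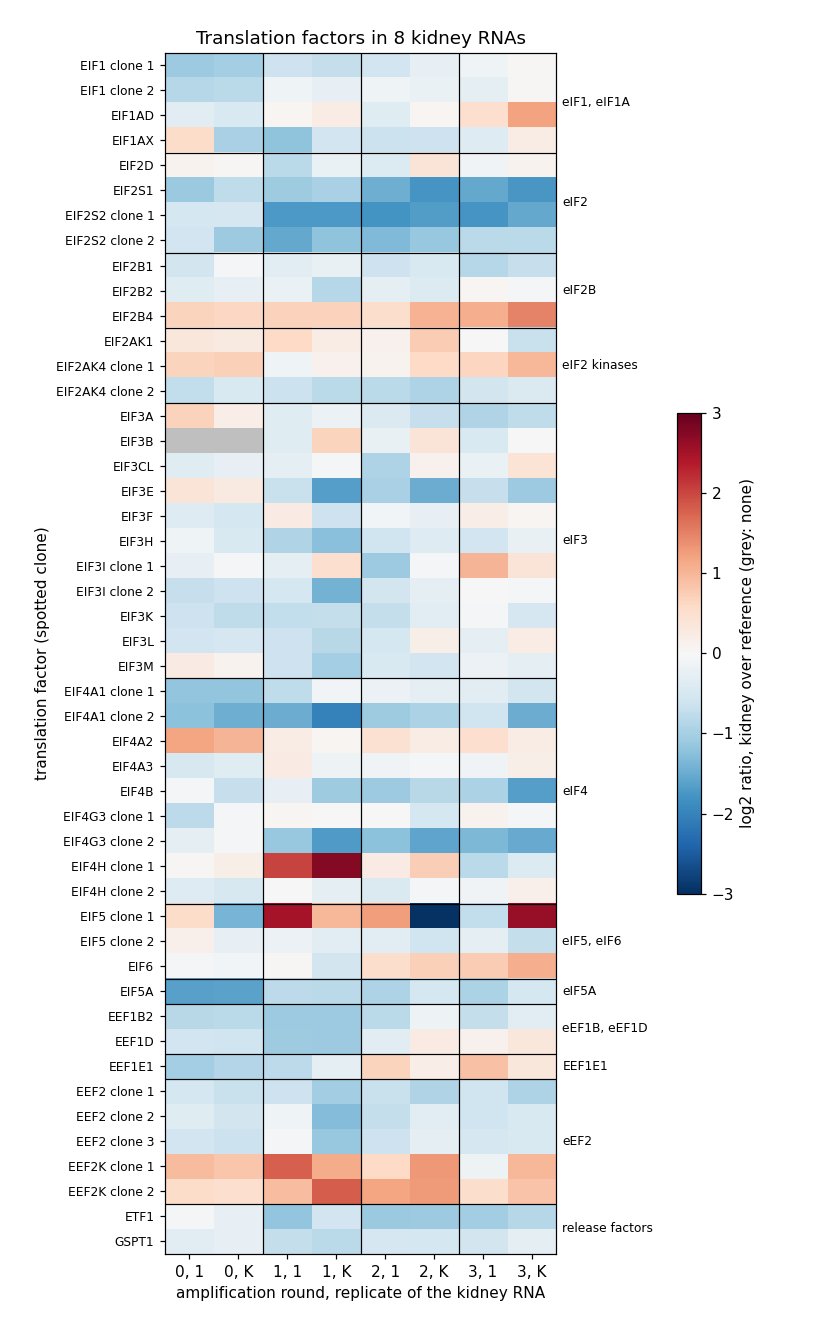
Log2 ratio of kidney over reference (colour, red above and blue below, grey where no ratio was given) for the 48 translation factor features (rows, grouped by complex) in the 8 kidney RNAs (columns, round and replicate). Most rows are pale blue; EIF2S1, EIF2S2 and EIF4A1 clone 2 are blue throughout, EIF2B4 red throughout, and EIF5 clone 1 changes colour between replicates.

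Between rounds, 10 features of the 47 passed in at least 1 of 6 comparisons. The share of all features that did so was not counted, so this number cannot be set against the array. At round 1, 5 of 47 features (10.6%) passed against round 0, 1 higher and 4 lower, where 13.3% of all tested features did (5.4% higher, 7.87% lower). At round 2, 4 passed (8.51%, 1 higher and 3 lower) against 11.2% of all (4.39% and 6.79%). At round 3, 6 passed (12.8%, 3 higher and 3 lower) against 11.6% of all (4.57% and 7.04%). The share of translation factors called was therefore close to that of the array at each round. The test for any difference among the 4 rounds called 2 of 47, EIF4H clone 1 and EIF2S2 clone 1, against 7.59% of all features. The median change over round 0 was -0.19, -0.04 and 0.13 at rounds 1, 2 and 3, beside -0.03, 0.01 and 0.00 over all features. These comparisons share the round 0 RNAs. With either round 0 RNA left out, all 3 counts were 0. The round 1 count was 3 without its replicate 1 and 0 without its replicate K, and the round 2 and round 3 counts were 0 without either RNA of that round. With only the 2 compared rounds in the fit, all 3 counts were 0, against 0.0361%, 2.67% and 4.64% of all features. The round 1, replicate 1, Cy3 array has a column with 52 numbers that cannot be ratios. Without this array the 3 counts were 2, 1 and 2, against 6.35%, 6.24% and 5.69% of all features. Without centring they were 20 (all lower), 0 and 0, against 33.7%, 1.21% and 2.35% of all features.

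Among the amplified rounds the test, with 2 RNAs a round, passed few features of any kind. From limma, 0 of 47 features passed between rounds 2 and 1 and 0 between rounds 3 and 2, as did 0% of all features, while 5 and 3 had an unadjusted p under 0.05. Between rounds 3 and 1, 1 passed (EIF4H clone 1, lower at round 3), against 0.289% of all features, and 11 had an unadjusted p under 0.05. That call was lost with any of the 8 RNAs left out. Between these rounds 33 of 47 features were higher at round 3, against 2964 of all 5537. Their median difference was 0.24, beside 0.06 over all features. Without the round 1, replicate 1, Cy3 array the median difference of the translation factors was 0.07. In 13 features all 6 amplified RNAs lay on the same side of both round 0 RNAs, 6 above (12.8%) and 7 below (14.9%), against 15.3% and 20.5% of all features.

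**Figure D3:**
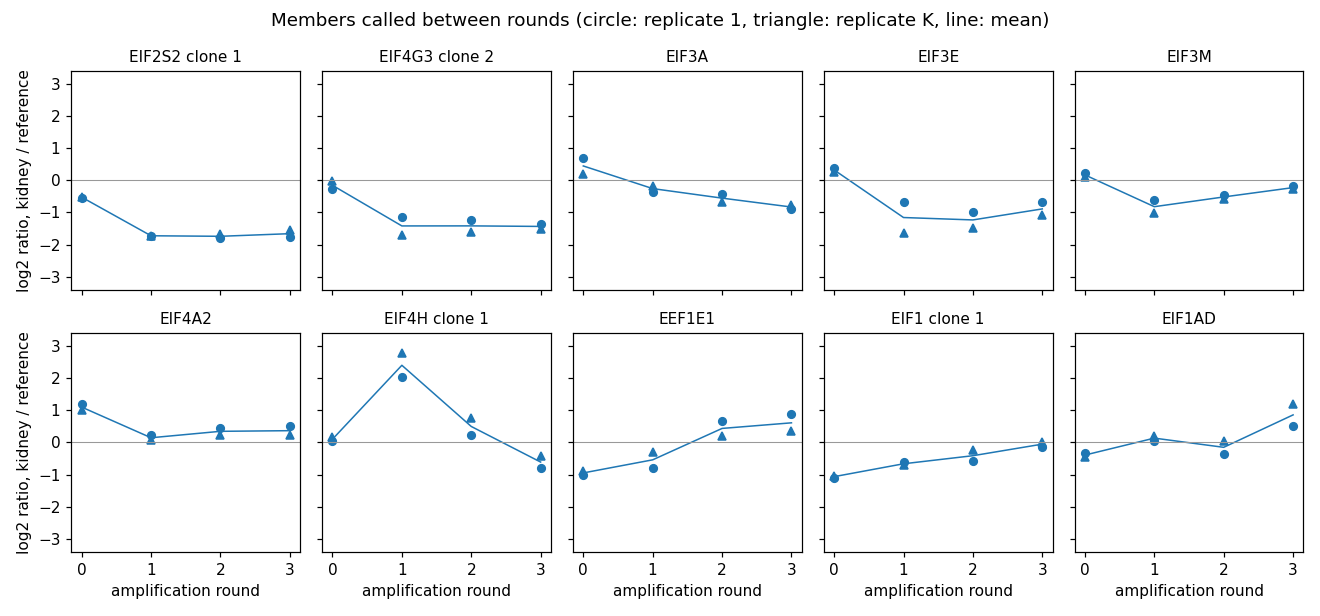
Log2 ratio of kidney over reference (vertical axis) by amplification round (horizontal axis) for the 10 features called between any rounds. Circles are replicate 1, triangles replicate K and lines their mean. EIF2S2 clone 1 and EIF4G3 clone 2 stand lower at every amplified round, EIF3A has a lower mean at each later round, EIF4H clone 1 peaks at round 1, and EEF1E1, EIF1 clone 1 and EIF1AD end above round 0.

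All 4 start site features, with EIF1AD counted among them, had a mean ratio under 0 at round 0. Of these, 2 were called, both clones of EIF1 (19% of all features were called below). All 4 stood above their round 0 mean at round 3, with 2 called, EIF1 clone 1 and EIF1AD (4.57% of all). EIF1, which keeps the scanning ribosome from settling on a wrong codon, had 2 clones. EIF1 clone 1 stood at -1.10 and -1.03 at round 0, -0.62 and -0.71 at round 1, -0.58 and -0.25 at round 2, and -0.14 and 0.03 at round 3. Both RNAs of every amplified round lay above both of round 0, and at round 3 it rose by 1.01 ± 0.21 (log2 difference with SE, n = 2, limma adjusted p = 0.0338). EIF1 clone 2 stood at -0.85 and -0.82, then -0.13 and -0.25, -0.14 and -0.21, and -0.30 and 0.05. Its amplified RNAs also lay above those of round 0, by 0.64, 0.66 and 0.71, but it did not pass (adjusted p = 0.0943, 0.0926 and 0.076). Only at round 0 were both clones called below the reference.

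EIF1AD, a protein with an eIF1A-like domain, stood at -0.34 and -0.45 at round 0, 0.05 and 0.21 at round 1, -0.36 and 0.06 at round 2, and 0.51 and 1.20 at round 3. Its round 3 RNAs lay above all others, and the log2 difference was 1.25 ± 0.29 (adjusted p = 0.0448). On single arrays of round 3, EIF1AD stood at 0.44 (Cy3) and 0.58 (Cy5) in replicate 1. In replicate K it stood at 0.36 (Cy3) and 2.04 (Cy5), so that a single array held much of the rise. EIF1AX, the X-linked gene of eIF1A, lay between -1.21 and 0.23 in the amplified RNAs, against 0.56 and -0.98 at round 0, with no call. Of its 27 spot values, 3 were listed at exactly 0, and 1 round 0 array gave no ratio.

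The eIF2 subunits lay well below the reference. With EIF2D, the 4 features had a median ratio of -0.68, -1.19, -1.42 and -1.22 at rounds 0 to 3. At each round 3 of 4, EIF2S1 and both EIF2S2 clones, were called below the reference. Of all features, 19%, 20.9%, 18.6% and 18.4% were called below it. EIF2S1, the alpha subunit that the stress kinases phosphorylate, stood at -1.12 and -0.77 at round 0, -1.07 and -0.97 at round 1, -1.46 and -1.77 at round 2, and -1.52 and -1.75 at round 3. It was called below the reference at each round (adjusted p = 0.00607, 0.00452, 0.000912 and 0.000901). Its differences from round 0 were -0.07, -0.67 and -0.69, and did not pass (adjusted p = 0.859, 0.115 and 0.102).

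EIF2S2, the beta subunit, had 2 clones. EIF2S2 clone 1 stood at -0.54 and -0.51 at round 0, -1.73 and -1.72 at round 1, -1.80 and -1.68 at round 2, and -1.78 and -1.54 at round 3. The replicates were nearly equal, and all amplified RNAs lay below round 0. It fell by 1.20 ± 0.20 at round 1 (a ratio of 0.436, adjusted p = 0.0193), by 1.21 ± 0.20 at round 2 (0.0189) and by 1.13 ± 0.20 at round 3 (0.0231), and passed the test over all rounds (adjusted p = 0.0358). On single arrays it ran from -2.02 to -1.43 after amplification and from -0.73 to -0.35 at round 0, so that the step appeared in both dyes. EIF2S2 clone 2 started lower, at -0.57 and -1.10, and stood at -1.54 and -1.20, -1.31 and -1.13, and -0.80 and -0.81 at rounds 1 to 3. Its RNAs of round 3 overlapped those of round 0, and no difference was called (adjusted p = 0.208, 0.35 and 0.944). Both clones were called below the reference at every round, but without centring clone 1 stood at 0.15 at round 0 and clone 2 kept its call only at round 1. EIF2D, which despite its name is no subunit of eIF2 and can deliver tRNA without GTP, lay between -0.81 and 0.38 with no call.

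The eIF2B subunits, which reload eIF2 with GTP, did not run together. EIF2B4, the delta subunit, stood at 0.66 and 0.62 at round 0, 0.70 and 0.70 at round 1, 0.52 and 1.04 at round 2, and 1.09 and 1.48 at round 3, and was above the reference at each round (adjusted p = 0.033, 0.0246, 0.0177 and 0.00299). EIF2B1, the alpha subunit, ran from -0.86 to -0.04 and was called below the reference at round 3 (adjusted p = 0.0149). EIF2B2, the beta subunit, ran from -0.85 to 0.07 and was not called. Of the 3, none was called between rounds, while EIF2B4 had an interval for its round 3 difference of 0.02 to 1.26.

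Kinases of eIF2 were represented by EIF2AK1, the heme-regulated kinase, and EIF2AK4, the sensor of uncharged tRNA known as GCN2. EIF2AK1 ran from -0.67 to 0.77 with no call. EIF2AK4 clone 1 stood at 0.66 and 0.71 at round 0, -0.14 and 0.13 at round 1, 0.10 and 0.59 at round 2, and 0.63 and 0.99 at round 3. EIF2AK4 clone 2 stood at -0.75 and -0.45, -0.65 and -0.81, -0.82 and -0.92, and -0.55 and -0.43. The 2 clones thus lay on opposite sides of the reference at round 0, 1.29 apart (adjusted p = 0.0275 above and 0.021 below). Without centring clone 2 stood at 0.0766 there, so that both lay above, and neither was called between rounds.

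The eIF3 complex had 10 tested features of 9 genes. Their median ratio was -0.30, -0.73, -0.51 and -0.13 at rounds 0 to 3, and 1, 6, 2 and 2 were called below the reference with 0 above, where 19%, 20.9%, 18.6% and 18.4% of all features were called below. Against round 0, 1 of 10 features was called lower at each round: EIF3M at round 1, EIF3E at round 2 and EIF3A at round 3. Of all features, 7.87%, 6.79% and 7.04% were called lower. The complex did not fall as a whole: 3, 4 and 6 of the 10 features lay above round 0 at rounds 1, 2 and 3. Their median difference was -0.25, -0.15 and 0.41. EIF3A, the largest subunit, stood at 0.69 and 0.20 at round 0, -0.35 and -0.17 at round 1, -0.42 and -0.69 at round 2, and -0.89 and -0.77 at round 3. Each later round lay lower than the one before by its mean, and at round 3 it fell by 1.28 ± 0.25 (adjusted p = 0.0293), against an adjusted p of 0.0521 at round 2 and 0.111 at round 1.

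EIF3E, a subunit also known as INT6, stood at 0.38 and 0.26 at round 0, -0.66 and -1.65 at round 1, -0.97 and -1.49 at round 2, and -0.69 and -1.09 at round 3. All amplified RNAs were below round 0, and it fell by 1.55 ± 0.38 at round 2 (adjusted p = 0.0498), with an adjusted p of 0.0512 and 0.0858 at rounds 1 and 3. EIF3M, like EIF3E a subunit with a PCI domain, stood at 0.24 and 0.09 at round 0, -0.62 and -1.02 at round 1, -0.46 and -0.58 at round 2, and -0.18 and -0.27 at round 3. It fell by 0.99 ± 0.22 at round 1 (adjusted p = 0.0384) and lay 0.39 below round 0 at round 3 (adjusted p = 0.276). Its call below the reference at round 2 turned to 0.057 without centring. In EIF3E and EIF3M the arrays with kidney in Cy3 lay lower than those with kidney in Cy5 at every amplified round.

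Other eIF3 subunits showed no call between rounds. EIF3H was called below the reference at round 1 and stood at -0.91 and -1.26 at round 1, against -0.12 and -0.45 at round 0, a difference of -0.80 with an adjusted p of 0.0888. EIF3K was called below the reference at rounds 0 and 1, and EIF3L and EIF3I clone 2 at round 1. EIF3F, EIF3CL (a near copy of EIF3C, whose RNA a cDNA clone cannot be expected to separate) and EIF3I clone 1 were called at no round. Over EIF3CL, EIF3F, EIF3H, EIF3K, EIF3L and both EIF3I clones, the differences from round 0 at round 3 ran from -0.11 to 0.83.

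The paralogs of the helicase eIF4A, which unwinds the leader of messengers, lay on opposite sides of the reference at round 0. EIF4A1, the main cytoplasmic form, was low at round 0 in both clones, at -1.18 and -1.19 for clone 1 and -1.23 and -1.46 for clone 2 (adjusted p = 0.00453 and 0.00736). EIF4A2, its close relative, stood at 1.18 and 1.01 at round 0 and was the highest ratio of all 47 features there (adjusted p = 0.00263). At rounds 1, 2 and 3 EIF4A2 stood at 0.23 and 0.06, 0.46 and 0.23, and 0.50 and 0.23. It fell by 0.95 ± 0.22 at round 1 (adjusted p = 0.0397), while -0.75 and -0.73 at rounds 2 and 3 did not pass (0.0745 and 0.076). EIF4A1 clone 1 stood higher at these rounds, at -0.75 and -0.08, -0.17 and -0.29, and -0.31 and -0.55, without a call (adjusted p = 0.112, 0.0716 and 0.114). EIF4A1 clone 2 stood at -1.48 and -2.03, -1.07 and -0.95, and -0.60 and -1.49, below the reference at each round. EIF4A3, which sits in the exon junction complex, ran from -0.47 to 0.25 with no call.

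EIF4G3, one of the scaffolds that joins the cap to the ribosome, split by clone. EIF4G3 clone 2 stood at -0.29 and -0.03 at round 0, -1.14 and -1.70 at round 1, -1.24 and -1.59 at round 2, and -1.35 and -1.51 at round 3. All amplified RNAs lay below round 0, and it fell by 1.26 ± 0.27, 1.26 ± 0.27 and 1.28 ± 0.27 (adjusted p = 0.0358, 0.0376 and 0.0359). On the replicate 1 arrays with kidney in Cy5, however, it stood at -0.80, -0.85 and -1.07 at rounds 1 to 3 beside -0.76 at round 0. EIF4G3 clone 1 lay between -0.52 and 0.10 after amplification, against -0.77 and -0.03 at round 0, with no call. Its differences from round 0 were 0.43, 0.15 and 0.44.

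EIF4H, a small partner that stimulates eIF4A, gave the largest called change. EIF4H clone 1 stood at 0.03 and 0.17 at round 0, 2.02 and 2.76 at round 1, 0.24 and 0.75 at round 2, and -0.81 and -0.41 at round 3. The round 1 RNAs were far above the others, and the round 3 RNAs below all others. It rose by 2.30 ± 0.33 at round 1 (4.91-fold, adjusted p = 0.0139), passed the test over all rounds (adjusted p = 0.0215), and was lower at round 3 than at round 1 by a log2 difference of -3.01 ± 0.33 (adjusted p = 0.0319), a call that was lost with any RNA left out. The 4 arrays of round 1 gave 1.90, 2.15, 3.05 and 2.47, so that both dyes showed the peak. At round 3 the dyes disagreed, with -1.50 and -1.05 for kidney in Cy5 and -0.11 and 0.23 for kidney in Cy3. The Cy3 arrays of round 0 gave -0.07 and 0.25. EIF4H clone 2 stood at -0.01 and -0.29 at round 1, against -0.39 and -0.47 at round 0, a difference of 0.29 (95% interval -0.29 to 0.86, adjusted p = 0.447). EIF4B, which shares this role, had mean ratios of -0.37, -0.66, -0.96 and -1.30 at rounds 0 to 3 and was called below the reference at rounds 2 and 3, but not between rounds (adjusted p = 0.172 at round 3).

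**Figure D4:**
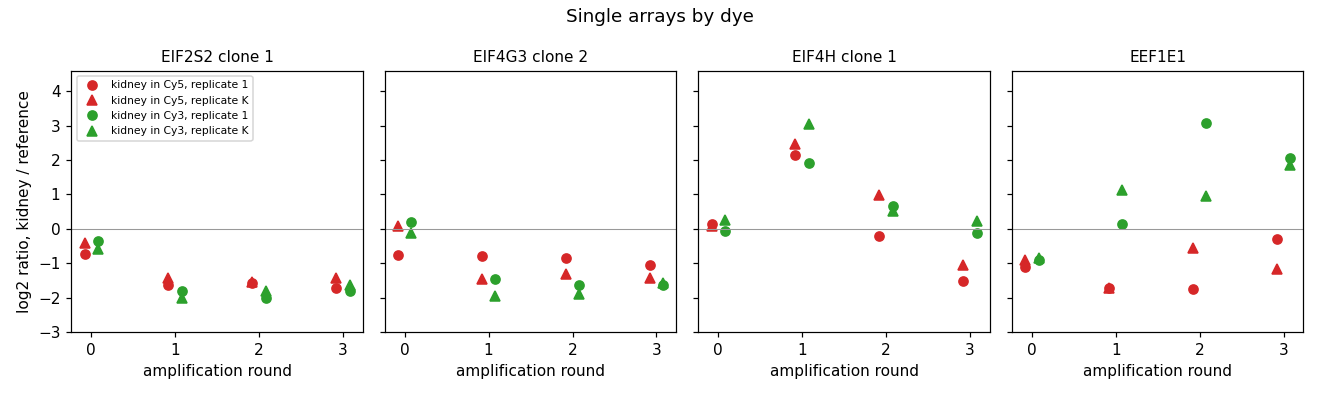
Log2 ratio of kidney over reference (vertical axis) on single arrays by amplification round (horizontal axis) for 4 features. Red marks kidney in Cy5, green kidney in Cy3, circles replicate 1 and triangles replicate K. In EIF2S2 clone 1 and EIF4H clone 1 both dyes moved together at round 1, while in EEF1E1 the Cy3 arrays lay above 0 and the Cy5 arrays below 0 at rounds 1, 2 and 3.

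No factor of subunit joining was called between rounds. EIF5, which makes eIF2 release its GTP at the start codon, had a clone that could not be read: EIF5 clone 1 had a ratio in 18 of 32 spots and stood at 0.54 and -1.38 at round 0, 2.50 and 0.99 at round 1, 1.25 and -2.96 at round 2, and -0.73 and 2.62 at round 3. Its replicates overlapped across rounds, and the interval for its round 1 difference was -1.84 to 6.17. EIF5 clone 2, with a ratio in all 32 spots, ran from -0.72 to 0.14 with no call. EIF6, which keeps large subunits from joining too early, stood at -0.03 and -0.08 at round 0, 0.03 and -0.55 at round 1, 0.53 and 0.72 at round 2, and 0.75 and 1.08 at round 3. It was called above the reference at rounds 2 and 3 (adjusted p = 0.0437 and 0.0119), but its difference of 0.97 from round 0 at round 3 did not pass (adjusted p = 0.0668).

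EIF5A, the hypusine-bearing factor that helps ribosomes past difficult peptide bonds, had the lowest ratio of the 47 features at round 0. It stood at -1.63 and -1.60 there, -0.79 and -0.81 at round 1, -0.94 and -0.52 at round 2, and -0.94 and -0.54 at round 3. It was below the reference at each round (adjusted p = 0.000987, 0.0131, 0.0189 and 0.0179). All 6 amplified RNAs were above both round 0 RNAs, by means of 0.81, 0.89 and 0.87, and none of these differences passed (adjusted p = 0.0787, 0.0664 and 0.0683).

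No clone of EEF2 was called between rounds. This GTPase moves the ribosome by a codon, and its 3 clones had mean ratios of -0.77, -0.53 and -0.48 at round 3, against -0.59, -0.46 and -0.62 at round 0. Clone 1 was below the reference at each round (adjusted p = 0.0112 to 0.038), but without centring it stood at 0.0876 at round 0 and kept its call only at round 1. The differences from round 0 over the 3 clones and 3 rounds ran from -0.27 to 0.18, none called. The intervals of EEF2 clone 1 spanned -0.84 to 0.41 over the rounds. EEF2K, the kinase that inhibits eEF2, stood above 0 in both clones and every RNA except the round 3 replicate 1 of clone 1. EEF2K clone 1 stood at 0.95 and 0.83 at round 0, 1.80 and 1.11 at round 1, 0.60 and 1.31 at round 2, and -0.16 and 1.00 at round 3. EEF2K clone 2 stood at 0.56 and 0.49, 0.93 and 1.81, 1.18 and 1.27, and 0.53 and 0.85. Clone 1 was called above the reference at round 1 and clone 2 at rounds 1 and 2, and neither was called between rounds.

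Exchange factors reload eEF1A with GTP. EEF1B2 stood at -0.84 and -0.81 at round 0, -1.10 and -1.10 at round 1, -0.80 and -0.16 at round 2, and -0.71 and -0.34 at round 3. EEF1D stood at -0.56 and -0.60, -1.06 and -1.09, -0.32 and 0.26, and 0.13 and 0.35. Both were called below the reference at rounds 0 and 1 and at no later round, and by their means both lay lowest at round 1. The dyes of replicate K disagreed there. EEF1B2 stood at -2.07 with kidney in Cy3 and -0.13 in Cy5, and EEF1D at -1.91 and -0.28. On the Cy5 arrays of replicates 1 and K, EEF1B2 stood at -0.74 and -0.13 at round 1, against -0.93 and -0.81 at round 0. Those of EEF1D stood at -0.89 and -0.28, against -0.55 and -0.53. Without centring EEF1D stood at 0.0941 at round 0. The difference of EEF1D at round 3 was 0.82 ± 0.25 and did not pass (adjusted p = 0.0821).

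EEF1E1, a scaffold of the complex of aminoacyl-tRNA synthetases that shares sequence with eEF1, was the sole elongation-named feature called between rounds. It stood at -1.01 and -0.88 at round 0, -0.78 and -0.30 at round 1, 0.66 and 0.20 at round 2, and 0.87 and 0.34 at round 3. It rose by 1.38 ± 0.30 at round 2 and 1.56 ± 0.30 at round 3 (adjusted p = 0.0381 and 0.0293). The dyes disagreed: with kidney in Cy3 the 4 arrays of rounds 2 and 3 gave 3.09, 0.96, 2.05 and 1.85, and with kidney in Cy5 -1.77, -0.55, -0.30 and -1.17, beside -1.11 to -0.86 on the 4 arrays of round 0. From the Cy5 arrays alone, the difference at round 2 was -0.15.

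Neither release factor passed between rounds. ETF1, the protein that reads stop codons, stood at -0.06 and -0.25 at round 0, -1.18 and -0.56 at round 1, -1.12 and -1.09 at round 2, and -1.05 and -0.85 at round 3. All amplified RNAs lay below round 0, by 0.72, 0.95 and 0.79 (adjusted p = 0.121, 0.0668 and 0.0971), and ETF1 was called below the reference at rounds 1, 2 and 3. GSPT1, its GTPase partner, stood at -0.35 and -0.25, -0.72 and -0.80, -0.51 and -0.52, and -0.56 and -0.27. It was called below the reference at rounds 1 and 2 (adjusted p = 0.0078 and 0.0329), but stood at 0.0613 at round 2 without centring.

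Clones of the same gene often took different courses. Of 10 genes with 2 or 3 tested clones, 5, 7 and 4 had differences from round 0 of 1 sign in all their clones at rounds 1, 2 and 3. The gap between a gene's clones at round 0 ran from 0.16 in EIF4A1 and EEF2 to 1.29 in EIF2AK4, with a median of 0.33. The gap between their differences at round 1 had a median of 0.61, with 2.36 in EIF5, 2.01 in EIF4H, 1.69 in EIF4G3 and 1.18 in EIF4A1. The smallest gaps at round 1 were 0.24 in EIF1 and 0.28 in EEF2K. At rounds 2 and 3 EEF2K had gaps of 0.63 and 0.63, while EIF2AK4 had 0.07 and 0.02. None of the 4 genes with several clones and a call between rounds (EIF1, EIF2S2, EIF4G3 and EIF4H) had a second clone called. Clone sequences and their overlap were not analysed here.

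**Figure D5:**
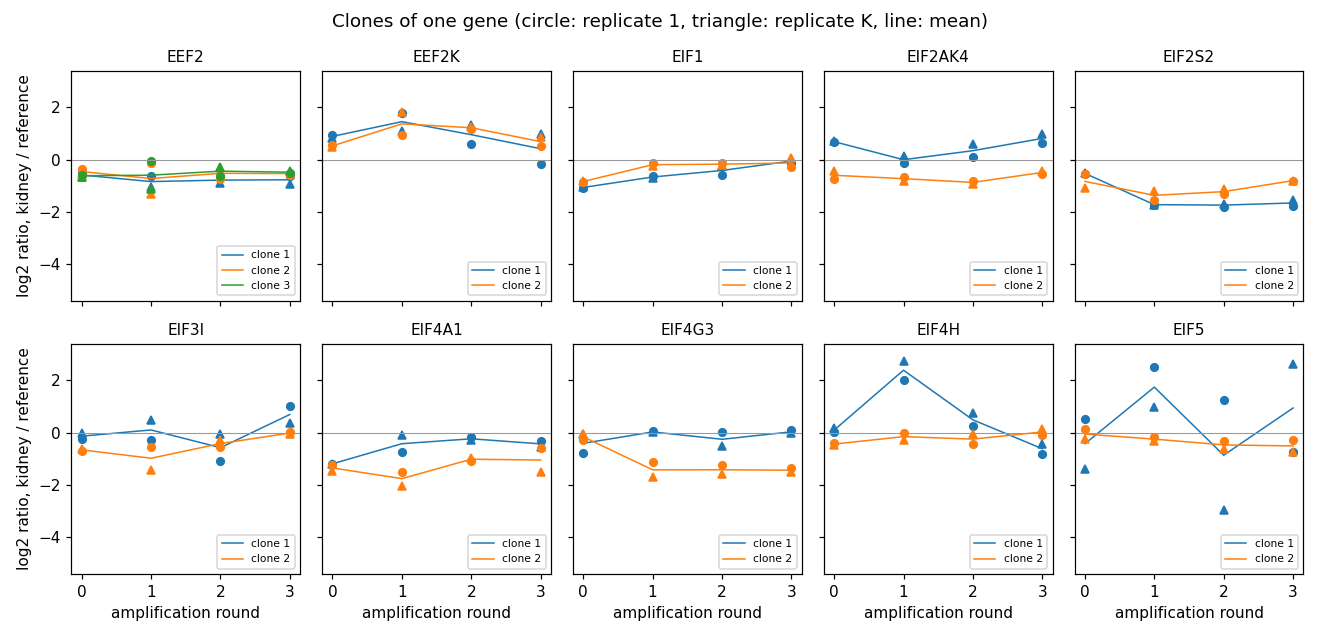
Log2 ratio of kidney over reference (vertical axis) by amplification round (horizontal axis) for the 10 genes with several clones. Colours are clones, circles replicate 1, triangles replicate K and lines means. The 3 EEF2 clones lie within 0.16 of each other at round 0, while EIF4G3 and EIF4H each have 1 clone called at round 1 and 1 whose round 1 mean was within 0.43 of its round 0 mean.

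Replicates of the translation factors differed by a median of 0.12 at round 0 and of 0.38, 0.31 and 0.32 at rounds 1, 2 and 3, beside 0.21, 0.37, 0.33 and 0.33 over all features. The dyes of an RNA differed by a median of 0.41 to 1.30 in the amplified RNAs, highest in the round 1 replicate K, against 0.23 and 0.20 in the round 0 RNAs 1 and K. Over all features that RNA also had the lowest correlation between its 2 arrays, 0.23, where the others lay between 0.35 and 0.66.

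Other genes of the pathway were drawn from 4 lists with 39 tested features. At round 1, 6 rose and 2 fell (20.5%, against 13.3% of all features), and at rounds 2 and 3, 0 rose and 4 fell at each (10.3%, against 11.2% and 11.6% of all), by limma, with 14, 13 and 17 at an unadjusted p under 0.05. The genes named here were picked after their values were seen. Cytosolic aminoacyl-tRNA synthetases, which charge tRNAs, had 3 of 12 features up and 1 down at round 1, with both NARS1 features (1.98 and 1.05) and 1 of 2 VARS1 features (2.76) up and 1 of 2 KARS1 features down (-1.52, and -1.13 at round 2). Mitochondrial translation factors had 0 of 4 called at any round with limma, with 0, 1 and 2 at an unadjusted p under 0.05. Among 10 features of poly(A) binding and ribosome rescue, 1 of 3 PABPC4 features (its protein binds the poly(A) tail) rose by 2.42 at round 1, and 1 of 2 features of PDCD4, an inhibitor of eIF4A, fell by 1.22 and 1.12 at rounds 2 and 3. Among 13 features of hypusine, diphthamide and stress genes, 2 rose at round 1: MKNK1, a kinase of eIF4E, by 1.44 (adjusted p = 0.0453) and 1 of 2 features of PPP1R15B, which directs a phosphatase to eIF2, by 1.93 (adjusted p = 0.0141). In the same list DHPS, the enzyme that begins hypusine formation on eIF5A, fell by 2.60, 2.17 and 2.04 at rounds 1, 2 and 3 (adjusted p = 0.0083, 0.014 and 0.0169). DPH3, of diphthamide formation on eEF2, fell by 1.44 at round 3, and 1 of 2 features of RPS6KB1, the S6 kinase, by 1.57 and 1.61 at rounds 2 and 3.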

How the data were processed

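Kidney RNA isolated with Trizol was reverse transcribed with amino-allyl dUTP and coupled to Cy3 or Cy5, per the labels' protocols. The deposited values are log2 ratios in 15 array columns, as found from the values. The deposited column of the round 1, replicate 1, Cy3 array was treated as log2 ratios like the others, not as a score. It also holds 52 out-of-range numbers, and how such score-like values were made before the files were deposited is not given in the sources. These numbers were set to missing, as was any ratio beyond 10 in size. Which scanner, background correction or normalization was used is not given in the sources. All columns were mapped to samples, so that the tables held 0 columns without a sample.

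Ratios were turned to kidney over reference by the dye labels, centred on each array's median of listed features, averaged over duplicate spots and then over the dye swap. The 8 RNA values were fitted with limma 3.58.1 in R 4.3.3 (read with version 1.17.8 of data.table), each round having its own mean (4 residual degrees of freedom), two-sided moderated tests and Benjamini-Hochberg adjustment over all 5537 tested features at 0.05. Intervals are 95%. The common reference enters no spread. The procedure was tested on simulated data. Same-named replicates did not deviate together (residual correlations of -0.05 to 0.17, 1 of 6 pairs of rounds above 0.1), so samples were not paired.

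The members and lists were chosen with earlier results of these data known. The rule for naming took features passing the test over all rounds, those on the same side of the reference at all rounds, and the feature of each role that differed most from round 0, with all clones of its gene; other features were named after their values were seen. Gene symbols come from the platform annotation, matched by gene identifier to RefSeq (ARS-UCD2.0). Alternatives covered centring, scaling, dyes, the replicate block, filters, the damaged array and left-out RNAs.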

Additional observations from a re-analysis of the deposited data

How the results depend on the processing

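Counts of called translation factors are given in a fixed order: rounds 1, 2 and 3 over round 0 (5, 4 and 6 as reported), round 3 over round 1 (1), and the test over all rounds (2). Percentages in brackets are the shares of all tested features in the same order. Without centring the counts were 20, 0, 0, 0 and 0 (33.7%, 1.21%, 2.35%, 0% and 3.65%). Against the reference at rounds 0 to 3 they were then 9, 25, 7 and 7 (35.7%, 26.5%, 31.2% and 22.1%). With arrays scaled to a common spread the 5 counts were 8, 7, 10, 1 and 4 (13%, 14.2%, 15.2%, 0.235% and 10.6%). With all 16 arrays, a dye term and the RNA as a random block they were 12, 10, 13, 5 and 16. The shares of all features rose as well (23.3%, 22.5%, 23.9%, 9.5% and 28.7%). Between rounds 2 and 1 the count was then 1 (0.56%). The estimated correlation between arrays of an RNA was -0.08, so that both arrays counted nearly as separate samples. From the arrays with kidney in Cy5 alone the counts were 2, 2, 5, 1 and 1 (4.3%, 5.23%, 9.86%, 0.394% and 3.63%). Against the reference they were then 14 at round 1 (30.7%) and 10 at round 3 (35.8%). From the Cy3 arrays alone the 5 counts were 6, 3, 4, 0 and 3 (20.4%, 10.3%, 7.92%, 0% and 6.95%), with 10 against the reference at round 0 (35.8%). With replicate 1 or K as a block, which the check of pairing did not call for, they were 6, 3, 6, 1 and 1 (11.4%, 9.41%, 10.2%, 0.217% and 3.86%), and no other count moved by over 1.5 times. With both duplicate spots required on every array they were 7, 8, 12, 2 and 12, with 35 translation factor features tested. The shares of all features so tested rose as well (28.4%, 27.4%, 30.4%, 10.3% and 33.6%). Without the round 1, replicate 1, Cy3 array the counts were 2, 1, 2, 1 and 1 (6.35%, 6.24%, 5.69%, 0.275% and 3.25%). With only the compared rounds in the fit, and so fewer samples, the 4 comparisons gave 0, 0, 0 and 0 (0.0361%, 2.67%, 4.64% and 0%). Over all features with or without a listed gene, an alternative added after seeing the data, the 5 counts were 4, 3, 5, 0 and 2 (9.53%, 8.39%, 8.69%, 0.15% and 4.78%). Ratios of exactly 0 set to missing, also added after seeing the data, gave 5, 3, 6, 1 and 2 (13%, 10.9%, 11.6%, 0.29% and 7.67%).

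With 1 RNA left out at a time, where the lone RNA of a round is assumed to vary like the others, the counts ranged from 0 to 3, 0 to 6, 0 to 5, 0 to 0 and 0 to 1, and were 0 to 0 between rounds 2 and 1 and between rounds 3 and 2. Against the reference they ranged from 4 to 20, 9 to 23, 4 to 16 and 4 to 17 at rounds 0 to 3. The 89 called values had 1870 values under the alternatives, left-out RNAs included. Of these 1870, 1483 were classed as the same, 380 as weaker and 7 as turned in sign. Among the calls between rounds, the weaker class ranged from 5 of 21 alternatives to 15 of 22. The lowest was EIF4H clone 1 at round 1 over round 0. The highest were EIF3E at round 2 and EIF1AD at round 3, each over round 0. Without centring, at round 0, EEF1D stood at 0.0941, EEF2 clone 1 at 0.0876, EIF2S2 clone 1 at 0.15 and EIF2AK4 clone 2 at 0.0766 against the reference, and at round 2 EIF3M stood at 0.057 and GSPT1 at 0.0613. From the Cy5 arrays alone EEF1E1 at round 2 over round 0 was -0.15. For the other changes the cause was not tested. With 2 RNAs a round and 16 arrays, the number of arrays limits the precision.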
